A study of Drosophila melanogaster and Drosophila yakuba and Drosophila virilis with 31 samples.

Results

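Unfertilized eggs and blastoderm embryos of D. virilis were compared gene by gene, from 7 of the 31 messenger RNA libraries of a study of 4 Drosophila species. Each library came from 1 egg or 1 embryo of strain V46, collected at room temperature. There were 2 newly laid unfertilized eggs, which hold only transcripts loaded by the mother, and 5 embryos (3 females and 2 males, sexed by PCR of Y-linked loci) that had completed cellularization and had not begun to gastrulate. The first male was left out because the study removed it for low quality. The embryos came from many mothers, so each was taken as a separate replicate, and the eggs differed from the embryos in both fertilization and time since laying, which cannot be told apart.

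In flies the nurse cells fill the egg with messenger RNA before it is laid. These maternal transcripts run the first nuclear divisions and set up the body axes, and they are then degraded in successive waves while the genome of the embryo is switched on. At the cellular blastoderm the gap, pair-rule and segment polarity genes divide the long axis into segments, and the Dorsal gradient and the BMP pathway divide the other axis into mesoderm, neurectoderm and dorsal tissue. The comparison of egg and blastoderm therefore shows which transcripts stood higher and which lower in the embryo, in a species distant from D. melanogaster. Levels alone do not tell RNA made by the embryo from maternal RNA that remained.

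The deposited values were FPKM (fragments per kilobase of transcript, corrected for the number of fragments in the library) scaled so that the 75th percentile of autosomal genes was equal between libraries. Orthologs present once in all 4 species gave 5993 genes, of which 5202 had a mean above 1 FPKM in the eggs, the females or the males and were tested. Read depth is unknown because no counts were given, so a value of 0 is stated as listed at 0. Levels were tested as log2(FPKM + 1), a scale on which differences of low genes are understated. At this scaling more genes were above 1 FPKM in embryos, 4895 to 4984 in each embryo against 4314 and 4364 in the eggs. Such a count depends on the scaling, and it is not given for the others. The rank correlation over the tested genes was 0.992 between the eggs, 0.972 to 0.988 between embryos and 0.643 to 0.673 between an egg and an embryo, given as a description across genes that share libraries. FPKM are shares of a library, so fewer cells or nuclei with a transcript and less of it per cell cannot be told apart.

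Of the 5202 genes tested, 82.9% were called in either direction. In embryos 2622 (50.4%) were higher and 1689 (32.5%) were lower (limma, Benjamini-Hochberg adjusted p under 0.05, 2 eggs against 5 embryos, with females and males weighted equally). The balance of higher and lower calls depended on how libraries were scaled. Higher genes were 60.8% of the calls in the 75th-percentile table and 46.5% in the TMM table (1980 higher, 37.8%, and 2278 lower, 43.5%, of 5234 tested), and between 44.7% and 53.6% in the other 4 tables. Eggs and embryos did not overlap for 50.7% of genes in the higher direction and 32.6% in the lower. The median difference over all genes was 0.38 in the 75th-percentile table and −0.09 in the TMM table, a shift of −0.47. Differences below are from the 75th-percentile table, where 0.38 is the level of the median gene. Genes given below as overlapping or not called there can still be lower in other scalings. Counts of list members are of genes called in the same direction in all 6 deposited scalings, a rule chosen after the data were seen, which held for 1625 genes (31.2%) in the higher direction and 1656 (31.8%) in the lower. Every other scaling had a lower median difference than the 75th-percentile table. The rule therefore removed many of the 2622 higher calls and few of the 1689 lower calls.

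**Figure D1:**
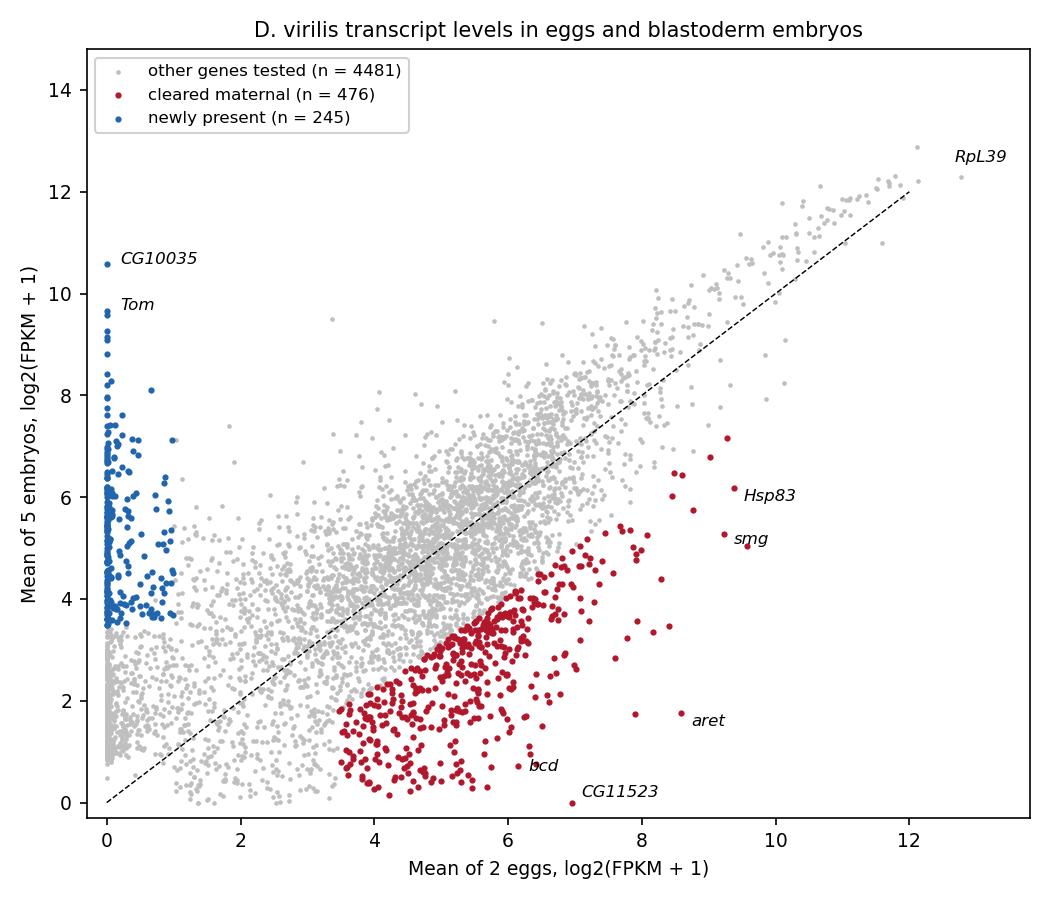
Each point is 1 of 5202 tested D. virilis genes, with the mean of 2 eggs on the x axis and the mean of 5 embryos on the y axis, both as log2(FPKM + 1), and the dashed line marks equal levels. The 245 newly present genes lie along the left edge and the 476 cleared maternal genes below the line, with CG11523 listed at 0 in every embryo.

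Among the genes that were higher, 245 (4.71% of those tested) were newly present, defined as called higher with an egg mean under 1 FPKM, an embryo mean of at least 10 FPKM and no overlap between eggs and embryos. Because these thresholds use the same libraries as the call, the set is a description. Its median level was 0.0192 FPKM in eggs and 34.3 FPKM in embryos, and its embryo means ran from 10.2 to 1523 FPKM. Of the 245 genes, 244 were called higher in all 6 scalings. The removed male, which played no part in choosing them, was above both eggs for 245 of 245, and for 2903 of the 5202 tested genes. Genes chosen for so wide a gap left little room for another outcome.

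The gene with the largest difference was CG10035 (FBgn0038028, scaffold 13047, 13713526 to 13714468; D. melanogaster arm 3R, 8207372 to 8208412 in FlyBase release 5). It was listed at 0 in both eggs and stood at 1547, 1665 and 1610 FPKM in the females and 1351 and 1441 FPKM in the males. The 5 embryos differed little from each other beside their distance from the eggs, and the difference was 10.55 ± 0.08 (SE) on the log2(FPKM + 1) scale (adjusted p = 7.84e-11, limma). CG8960 was listed at 0 in both eggs and reached 721 to 917 FPKM in embryos (difference 9.63).

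Next came Tom, a member of the Bearded family of Notch pathway regulators (FBgn0026320, scaffold 13049, 17772105 to 17772650), which was listed at 0 in both eggs and measured 814, 856 and 720 FPKM in females and 747 and 677 FPKM in males. The 5 embryos lay close together and the difference was 9.56 ± 0.09 (adjusted p = 3.65e-10, limma). Bro, which encodes a binding partner of the Runt family transcription factors, was listed at 0 in eggs and lay between 519 and 732 FPKM in embryos (difference 9.23). CG5888 (438 to 623 FPKM, difference 9.05), CG8147 (358 to 580 FPKM, difference 8.77), ImpL1 (254 to 391 FPKM, difference 8.38) and dan (243 to 351 FPKM, difference 8.17), a transcription factor gene first known from the antenna, were also listed at 0 in both eggs. The adhesion protein gene mfas was the only member of the leading 10 with a measured egg level, 0.0678 and 0.0170 FPKM, against 268 to 388 FPKM in embryos (difference 8.2).

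The remaining gene of the leading 10, CG14915, varied most among embryos. It was listed at 0 in both eggs and stood at 457, 507 and 121 FPKM in the females and 950 and 792 FPKM in the males. Both males were above the 3 females, and the third female was far below the rest, so its difference of 9.01 had an SE of 0.50, several times that of its neighbours in rank (adjusted p = 1.12e-06, limma).

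**Figure D2:**
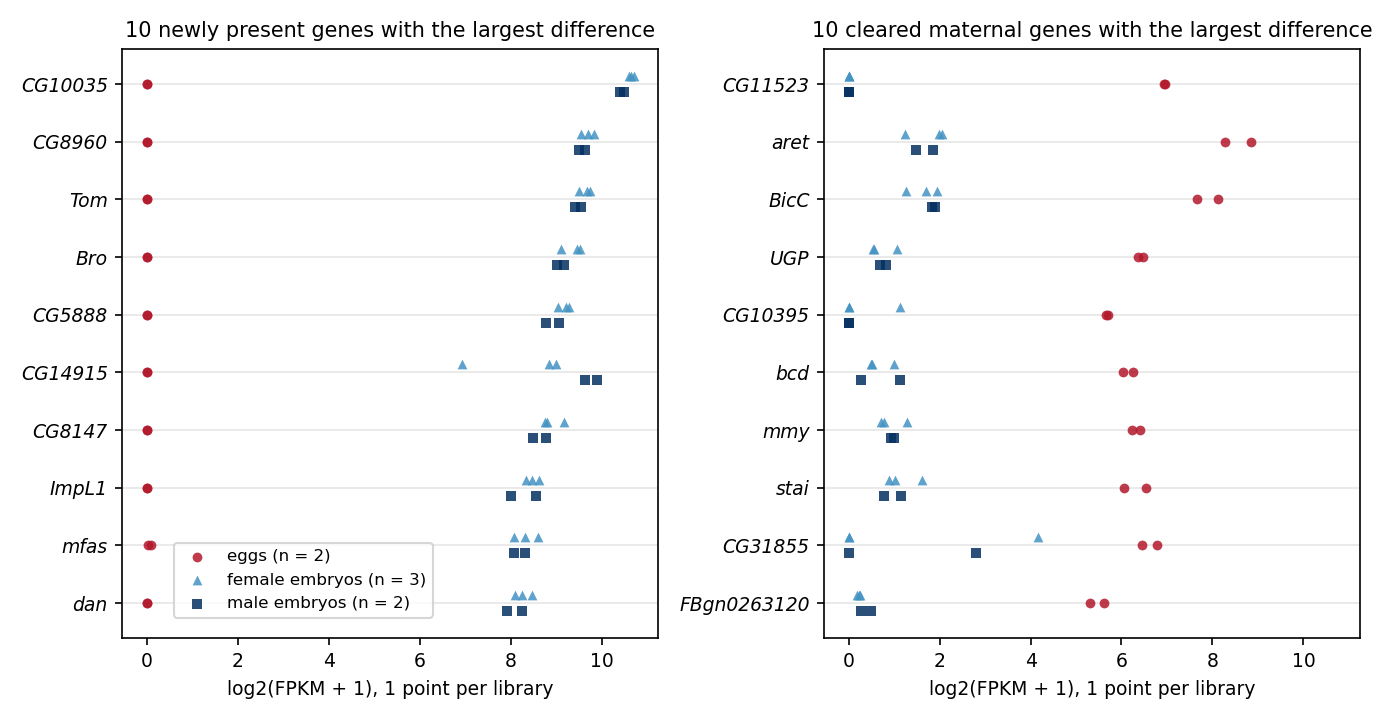
Levels in every library, as log2(FPKM + 1) on the x axis, are shown for the 10 newly present genes (left) and the 10 cleared maternal genes (right) with the largest differences, 1 point per egg, female or male. Eggs and embryos are separated for all 20 genes, with the widest spreads among embryos for CG14915, CG10395 and CG31855.

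The newly present genes were also described by features other than level, although the class of origin goes with the egg threshold. An earlier allele-specific experiment in D. melanogaster classed transcripts as maternal, zygotic or both. Of all tested genes with an egg mean under 1 FPKM, 456 were zygotic in it, 101 maternal and 106 both. Of the newly present genes, 162 (66.1%) were zygotic, against 11.4% of all tested genes. By the D. melanogaster gene models, 42 of the 234 with a model (17.9%) had a single exon, against 6.45% of all tested genes and 3.32% of the cleared maternal genes, and the median number of exons was 3, 4 and 5 in the same order. On the D. virilis scaffolds, 57 of the 245 (23.3%) were next to another newly present gene among the tested genes, against 8.96% of all tested genes. These shares are given as a description and were not tested. In the other direction, of the 592 tested genes that are zygotic in D. melanogaster, 77.0% had an egg mean under 1 FPKM in D. virilis, and 62.8% were higher in all 6 scalings. A gene with an egg mean under 1 FPKM was tested only if the females or the males had a mean above 1 FPKM. Zygotic genes low in both stages were thus left out, and the filter itself favoured higher calls.

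Those 57 genes lay in 25 runs, of which 21 were pairs, and the runs named here were chosen after their values were seen. In a run of 4 genes within 14674 bases of scaffold 13049 (17757977 to 17772650) lay CG5114 and the Bearded family genes Ocho, Brd and Tom. Ocho was listed at 0 in eggs and reached 91.7 to 121.3 FPKM in embryos, and Brd reached 31.1 to 48.3 FPKM. A second run of 4, within 18283 bases of scaffold 13047 (5432086 to 5450368), held m4, HLHm5, HLHm7 and E(spl) of the Enhancer of split complex, the classic set of Notch target genes. All 4 were listed at 0 in both eggs, and their embryo means were 150.9 FPKM for m4, 55.7 for HLHm5, 22.2 for HLHm7 and 12.2 for E(spl). The paired genes comm and comm2, which control axon crossing of the midline, had embryo means of 33.8 and 53.5 FPKM.

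Not all the near-empty egg values can be read alike. Of the 245 genes, 82 were listed at 0 in both eggs, and 21 had an egg value above 0 but under 0.001 FPKM. Such values can arise where reads shared between transcripts are divided by the estimation, and whether that happened was not tested. They included SdhC, which encodes a subunit of succinate dehydrogenase that every respiring cell uses. Its values were 4.27e-06 and 0.0534 FPKM in eggs and 11.7 to 22.1 FPKM in embryos. Ski6, a subunit of the RNA exosome, was at 9.52e-08 and 1.55e-08 FPKM in eggs and at 0.000111 FPKM in the third male, against 3.02 to 22.6 FPKM in the other embryos. Both genes were chosen after their values were seen, and both are among the 30 newly present genes that are maternal in D. melanogaster.

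Segmentation genes rose together in the embryos. Of the 8 tested gap and head gap genes, 7 were higher in all 6 scalings and 0 were lower (median difference 4.35, against 0.38 over all genes). Kni, a gap gene of the abdomen, was at 0 and 5.77e-07 FPKM in eggs and at 58.9, 71.9 and 55.2 FPKM in females and 63.8 and 67.1 FPKM in males. Kr, the gap gene of the central domain, was at 0.0211 and 0.0336 FPKM in eggs and 47.7 to 64.8 FPKM in embryos (difference 5.84), and the terminal gap gene hkb rose by 5.05 and the head gene oc by 4.41. The gene matched to the remaining entry, CG13826, was at 7.90 and 12.2 FPKM in eggs and 6.63 to 9.89 FPKM in embryos, which overlapped.

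All 9 pair-rule genes, which mark alternate segments in stripes, were higher in all 6 scalings (median difference 5.91), and 8 of them were newly present. Opa was at 0.0195 and 0.0168 FPKM in eggs and at 127.7, 134.4 and 118.9 FPKM in females and 106.2 and 124.1 FPKM in males. The eggs and embryos were far apart (difference 6.90 ± 0.10, adjusted p = 2.38e-09, limma). Ftz was listed at 0 in both eggs and ran from 101.4 to 142.3 FPKM in embryos (difference 6.86), prd from 59.2 to 74.1 FPKM (6.09) and odd from 58.7 to 73.4 FPKM (6.07). The summed level of the 9 genes was 0.531 and 0.542 FPKM in the eggs and 521.7 to 649.1 FPKM in the embryos, which fits the labels of egg and blastoderm.

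The 7 tested segment polarity genes were all higher as well, with a smaller median of 2.75. Ptc, the Hedgehog receptor, was at 0.0878 and 0.267 FPKM in eggs and 119.9 to 163.6 FPKM in embryos (difference 6.96), and nkd, an antagonist of Wingless signalling, rose by 6.28. The ligand gene wg was at 0 and 0.0341 FPKM in eggs and 9.19 to 18.6 FPKM in embryos (difference 3.79). The T-box gene mid was listed at 0 in eggs and varied from 2.58 to 12.1 FPKM in embryos. Of the homeotic list, tsh, abd-A and Antp rose by 3.49, 3.02 and 2.12 from egg values at or near 0. The exception was cad, a posterior determinant that the mother supplies, which was at 92.7 and 112.3 FPKM in eggs and 5.70 to 6.85 FPKM in embryos (difference −3.86).

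Genes of the dorsoventral axis were the other large group to rise. In the dorsal ectoderm and BMP list 13 of 14 tested genes were higher in all 6 scalings (median difference 3.86), and in the mesoderm and neurectoderm list 16 of 22 were higher and 1 was lower (median 4.23). The mesoderm determinant twi was at 0.0898 and 0.153 FPKM in eggs and at 128.8, 129.1 and 138.4 FPKM in females and 109.5 and 144.9 FPKM in males (difference 6.86 ± 0.12, adjusted p = 5.06e-09, limma). Its partner sna was listed at 0 in eggs and ran from 90.6 to 124.7 FPKM in embryos (difference 6.68). Traf4, which acts in mesoderm folding, and the Sox gene D of the neurectoderm were listed at 0 in eggs and reached 73.9 to 109.9 and 53.7 to 87.6 FPKM. The BMP antagonist sog rose by 6.06 and the BMP modulator tsg by 5.07.

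Some members of these lists did not behave so. Mef2, a muscle transcription factor gene, was at 13.2 and 17.5 FPKM in eggs and 0.289 to 1.84 FPKM in embryos, so it fell. Fog, the secreted signal for cell shape change in gastrulation, was at 8.05 and 6.50 FPKM in eggs and 6.88 to 11.5 FPKM in embryos, which overlapped (difference 0.31, adjusted p = 0.119, limma), and tin, a mesoderm homeobox gene, did not pass the test either (difference 0.34, with 0.954 to 2.20 FPKM in embryos).

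The third female embryo stood apart from the other 4 in many dorsal genes, a comparison made after the values were seen. Zen, the homeodomain gene of the amnioserosa, was listed at 0 in both eggs. It was at 65.5, 63.2 and 0.981 FPKM in the 3 females and at 65.5 and 44.4 FPKM in the males, so 1 embryo held 1.64% of the mean of the others. Doc1, a T-box gene of the same dorsal tissue, was at 52.4, 52.4 and 4.47 FPKM in females and 52.4 and 33.4 FPKM in males. The same embryo was below every other one for Doc2 (0.655 against 3.66 to 7.89 FPKM), Doc3 (7.98 against 21.8 to 41.6 FPKM), pnr (0.0421 against 3.70 to 7.12 FPKM), tup (4.0 against 12.1 to 20.4 FPKM), ush (4.51 against 10.3 to 10.8 FPKM) and the BMP ligand dpp (4.65 against 13.2 to 15.3 FPKM). The third male was the next lowest for zen, Doc1, Doc2 (3.66 FPKM), Doc3 (21.8 FPKM) and tup (12.1 FPKM), and by little for ush and dpp. For pnr it lay among the others, at 5.38 FPKM.

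Several genes of the neurectoderm were higher in that embryo, also chosen after the values were seen. Sog was at 161.4 FPKM there and 55.4 to 86.7 FPKM in the others, ind was at 67.7 against 28.4 to 45.5 FPKM, and SoxN was at 95.1 against 42.3 to 55.8 FPKM. The FGF ligand gene ths was at 44.7 against 11.2 to 16.9 FPKM, and brk, a repressor of BMP targets, was at 46.3 against 17.1 to 28.7 FPKM. The Sox gene D lay within the range of the others (66.2 against 53.7 to 87.6 FPKM), and the proneural gene sc (1.35 against 1.54 to 2.47 FPKM) and the midline gene sim (0.422 against 1.13 to 1.48 FPKM) were below it. Mesoderm genes were divided. Twi, at 138.4 FPKM, and sna, at 90.6 FPKM, were within or just under the range of the others, while htl, an FGF receptor gene (8.86 against 20.2 to 24.8 FPKM), Mef2 (0.289 against 0.992 to 1.84 FPKM) and stumps, which acts with the FGF receptor (29.1 against 34.7 to 47.8 FPKM), were lower. The pair-rule genes ftz (110.1 FPKM) and eve (47.5 against 41.8 to 52.8 FPKM) were within the range of the others. The dorsal regulators tsg and scw, at 33.3 and 15.4 FPKM, also lay near the other embryos.

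Among the 245 newly present genes, the third female was more than 1 log2 unit below every other embryo for 14 genes and above every other for 1, while the counts were 0 below and 0 above for each of the other embryos, except for the third male, with 1 below (Ski6). The 14 included zen, Doc1, Doc3, tup, dpp, the BMP-binding protein gene cv-2 (13.6 against 43.6 to 54.1 FPKM), net, htl and CG14915. In the removed male zen was at 38.1 FPKM and Doc1 at 60.4 FPKM. Without the third female the difference of zen was 5.91 (adjusted p = 7.79e-08, limma) in place of 5.06 (adjusted p = 0.00547). The zen call did not pass without the first egg (adjusted p = 0.0508) or the second (adjusted p = 0.051), although both eggs were listed at 0. Over all 5202 tested genes the third female was below every other embryo for 942 and above every other for 1125, and in the dorsal ectoderm and BMP list it was below for 8 of 14 and above for 3. In the mesoderm and neurectoderm list it was below for 6 of 22 and above for 10, in the gap and head gap list below for 4 of 8 and above for 2, and in the pair-rule list below for 1 of 9 and above for 3. Whether the low position was particular to the dorsal genes was not tested. The number of newly present genes was 245 with and without the third female.

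**Figure D3:**
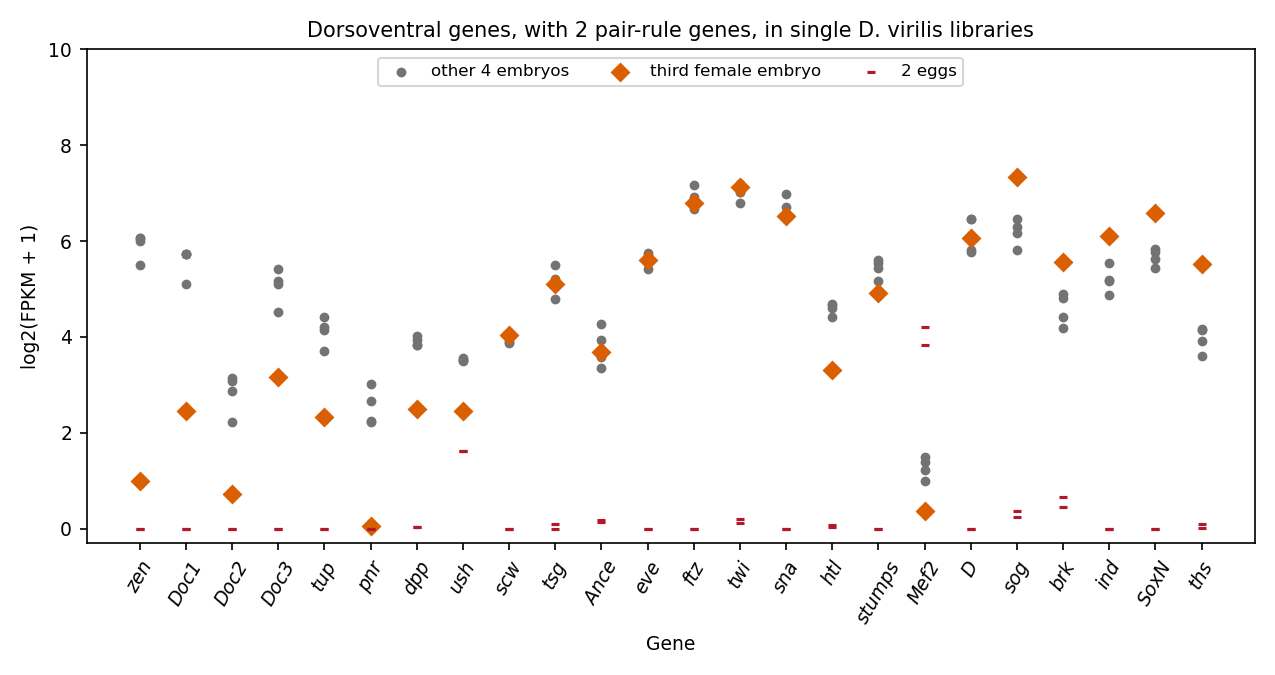
Levels of 22 dorsoventral genes and of the pair-rule genes eve and ftz, chosen after their values were seen, as log2(FPKM + 1), are shown for the third female embryo (diamonds), the other 4 embryos (grey points) and the 2 eggs (dashes). The diamond lies below the grey points from zen to ush and for htl, stumps and Mef2, above them for sog, brk, ind, SoxN and ths, and among or next to them for the rest.

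Genes that act at the switch to zygotic control were also examined. In the list of X counting and early zygotic genes 8 of 9 were higher in all 6 scalings (median 3.28). The X-linked sex-counting gene sisA was listed at 0 in eggs and at 24.6 to 60.6 FPKM in embryos (difference 5.31), and run, which is both a counting gene and a pair-rule gene, rose by 5.16. Bsg25A, a gene of the early blastoderm, was near 0 in eggs and spread from 15.9 to 45.3 FPKM in embryos (difference 4.83). The cellularization gene bnk was listed at 0 in eggs and at 33.5 to 55.6 FPKM in embryos, whereas slam, which drives the furrows inward, was already at 65.1 and 64.8 FPKM in eggs and at 171.7 to 263.0 FPKM in embryos.

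Of 4 tested factors of genome activation, only gro, a co-repressor, was higher in all 6 scalings (difference 1.15), and CG1832, also known as CLAMP, was lower (−0.34). The pioneer factor gene vfl, also known as zelda, was at 42.8 and 51.5 FPKM in eggs and 59.1 to 80.4 FPKM in embryos, and no embryo overlapped the eggs. Its difference was 0.52 in the 75th-percentile table, 0.05 in the TMM table and −0.02 in the 95th-percentile table, so no direction is given for it. Stat92E also changed sign between scalings, from 0.39 to −0.15.

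In the list of early zygotic cell cycle regulators 2 of 3 tested genes were lower in all 6 scalings and 0 were higher. String (stg), the Cdc25 phosphatase that times mitosis, was at 37.2 and 42.2 FPKM in eggs and 6.81 to 11.4 FPKM in embryos (difference −2.13), and the Cdk inhibitor gene dap fell by 2.73, with 0.499 to 3.44 FPKM in embryos. The remaining gene, rap, an activator of cyclin destruction, had a difference of 0.37 in the 75th-percentile table and −0.10 in the TMM table. Of the 15 maternal cell cycle genes tested, 10 were lower in all 6 scalings and 3 were higher (median −0.83). The meiotic Cdc25 gene twe fell by 2.80, CycB went from 1047 and 1194 FPKM in eggs to 284.5 to 313.9 FPKM in embryos (difference −1.90), and the inhibitory kinase gene Myt1 fell by 1.89. The 3 that rose were CG32251, the D. melanogaster Claspin gene of the replication checkpoint, at 1.00 and 1.63 FPKM in eggs and 32.3 to 38.9 FPKM in embryos (difference 3.98), the cyclin gene CycB3 (difference 1.01) and the kinase gene cdc2 (difference 0.95). The checkpoint kinase gene mei-41 was at 8.87 and 9.99 FPKM in eggs and 9.01 to 13.4 FPKM in embryos, which overlapped.

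Maternal transcripts that were lost made up the other side of the comparison. Of the lower genes, 476 (9.15% of those tested) were cleared, defined as called lower with an egg mean of at least 10 FPKM, an embryo mean of at most 25% of it and no overlap. By the same definition 723 genes were cleared in the TMM table and 760 in the 95th-percentile table. All 476 were called lower in all 6 scalings. The other scalings moved the median difference by −0.24 to −0.53, so falls this large left little room for another outcome. The removed male was below both eggs for 476 of 476, and for 2038 of the 5202 tested genes. Their median fell from 42.1 FPKM in eggs to 4.92 FPKM in embryos. In D. melanogaster 427 of them (89.7%) are classed as maternal, against 67.8% of all tested genes. The egg threshold alone goes with this class. Of the 1901 genes with an egg mean of at least 10 FPKM and 50 to 200% of it in embryos, 84.7% are maternal.

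Most transcripts that the egg held were not reduced to this extent. Of 3394 genes with an egg mean of at least 10 FPKM, 175 (5.16%) had at most 10% of the egg level in embryos, 301 had 10 to 25%, 474 had 25 to 50%, 808 had 50 to 100%, 1093 had 100 to 200%, and 543 had more than 200%. The median gene stood at 96.7% of its egg level in embryos, and at 69.9% in the TMM table. There 273 of 3658 genes were at or under 10%.

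The gene with the largest fall was CG11523 (FBgn0037156, scaffold 13049, 14832947 to 14833388; D. melanogaster arm 3L, 22258905 to 22259777). It was at 123.9 and 121.6 FPKM in the eggs and listed at 0 in all 5 embryos (difference −6.95 ± 0.13, adjusted p = 6.33e-09, limma). Aret, which encodes Bruno, a repressor of oskar translation, was at 306.9 and 460.5 FPKM in eggs and at 2.99, 1.35 and 3.14 FPKM in females and 1.81 and 2.64 FPKM in males. Its embryo mean was less than 1% of its egg level (0.622%), the same being true of the RNA-binding protein gene BicC (0.993%) and of bcd (0.921%).

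Bcd, the anterior morphogen gene, was at 64.3 and 75.8 FPKM in eggs and at 0.435, 1.00 and 0.404 FPKM in females and 1.18 and 0.211 FPKM in males (difference −5.46 ± 0.26, adjusted p = 5.27e-07, limma). On scaffold 13047 the gene ends at base 6167042, and zen starts at 6169512, with 2469 bases between them. The neighbours thus changed in opposite directions, and the pair was chosen after the values were seen.

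Among the other leading cleared genes UGP, an enzyme of UDP-glucose synthesis, fell by 5.67, and mmy, an enzyme of UDP-N-acetylglucosamine synthesis, fell by 5.37. UGP was at 81.5 and 87.3 FPKM in eggs and 0.461 to 1.08 FPKM in embryos. The microtubule regulator gene stai fell by 5.23 and the gene FBgn0263120, which has no symbol in the files, by 5.16. CG10395 was at 49.2 and 51.2 FPKM in eggs and at 1.18 FPKM in the first female, and was listed at 0 in the other 4 embryos. CG31855 was at 86.2 and 109.5 FPKM in eggs and very uneven in embryos, at 16.9, 0.0025 and 4.14e-06 FPKM in females and at 6.02 FPKM in the second male and listed at 0 in the third male (difference −5.22 ± 1.19).

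**Figure D4:**
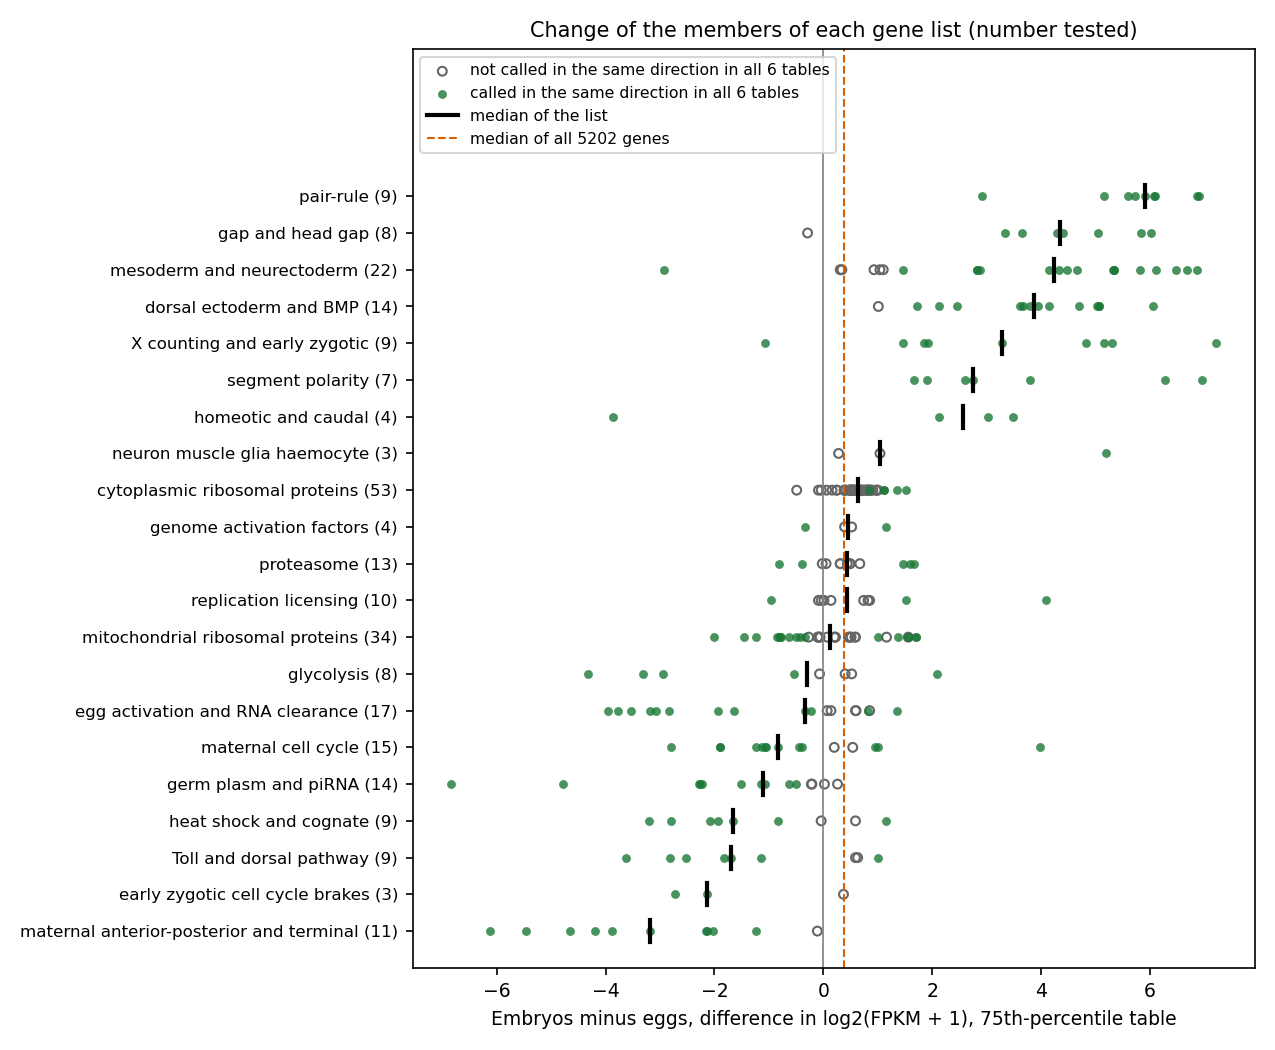
Differences between embryos and eggs in log2(FPKM + 1) are plotted on the x axis for the tested members of each gene list with at least 3 such members; filled points were called in the same direction in all 6 scalings. List medians (bars) run from 5.91 for pair-rule genes to −3.19 for maternal anterior-posterior and terminal genes, and the dashed line marks the median of all 5202 genes, 0.38.

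The maternal genes that lay out the long axis fell nearly as a block. Of 11 tested members, 10 were lower in all 6 scalings and 0 were higher (median difference −3.19). Tor, the receptor of the terminal system, was at 109.2 and 107.4 FPKM in eggs and 2.98 to 4.48 FPKM in embryos (difference −4.65). Osk, which assembles the germ plasm, was at 101.6 and 124.8 FPKM in eggs and at 8.13, 2.86 and 9.57 FPKM in females and 1.57 and 9.97 FPKM in males. Every embryo was below both eggs, with a spread of several-fold among embryos (difference −4.20 ± 0.57). Stau, whose protein carries bcd and osk RNA, overlapped between eggs (29.7 and 34.6 FPKM) and embryos (24.3 to 35.0 FPKM), and was lower in 4 of the 6 scalings.

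In the germ plasm and piRNA list 10 of 14 were lower and 0 were higher (median −1.11). Pgc, a repressor of transcription in germ cells, was at 182.8 and 204.8 FPKM in eggs and 4.15 to 6.99 FPKM in embryos (difference −4.78). Tud, a scaffold of the germ plasm, fell by 2.28 and the germline transcription factor gene ovo fell by 2.26. Shu, a piRNA pathway gene, was at 39.8 and 40.3 FPKM in eggs and 30.6 to 39.3 FPKM in embryos (difference −0.22, adjusted p = 0.127, limma). It was lower in 4 of the 6 scalings, with a difference of −0.70 in the TMM table.

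The maternal Toll pathway, which reads the ventral signal and sends Dorsal to the nucleus, was lower for 6 of 9 genes and higher for 1 (median −1.70). The ligand gene spz was at 19.4 and 21.4 FPKM in eggs and 0.483 to 1.60 FPKM in embryos (difference −3.62). The transcription factor gene dl itself was at 12.5 and 18.5 FPKM in eggs and at 1.42, 1.34 and 1.21 FPKM in females and 1.29 and 1.33 FPKM in males, with the third female only just below the rest (difference −2.81). The adaptor gene tub fell by 2.53 and the protease gene gd by 1.82.

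Factors of egg activation and RNA clearance were lower for 10 of 17 and higher for 2 (median −0.33). Smg, the RNA-binding protein that marks maternal transcripts for destruction, was at 585.8 and 609.2 FPKM in eggs and at 39.8, 37.5 and 37.5 FPKM in females and 33.3 and 40.1 FPKM in males. The embryos were tightly grouped at 6.30% of the egg level (difference −3.96 ± 0.09, adjusted p = 1.78e-08, limma). The PNG kinase subunit gene gnu fell by 3.78, the calcineurin subunit gene CanB2 by 3.54 and the translational repressor gene pum by 3.19. Subunits of the CCR4-NOT deadenylase, named after their values were seen, were divided. Twin was at 97.7 and 91.7 FPKM in eggs and 235.3 to 256.5 FPKM in embryos, and Pop2 rose by 0.82. Rga was lower in all 6 scalings (difference −0.33), and Not1 had a difference of 0.59 and was higher in 3 of the 6. Ge-1, a decapping scaffold gene, was at 102.5 and 97.0 FPKM in eggs and 100.3 to 115.1 FPKM in embryos.

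Metabolic and chaperone genes split. In glycolysis 4 of 8 were lower and 1 was higher (median −0.30). Tpi was at 104.6 and 145.8 FPKM in eggs and 3.98 to 7.24 FPKM in embryos (difference −4.32), Hex-A fell by 3.31 and Pfk by 2.95, while Gapdh2 overlapped at 267.5 to 465.7 FPKM in embryos against 374.3 and 355.5 FPKM. ImpL3, the lactate dehydrogenase gene, was listed at 0 in eggs and at 1.55 to 6.43 FPKM in embryos. Of 9 heat shock and cognate genes 6 were lower and 1 was higher (median −1.66). Hsp83, a classic unstable maternal transcript in D. melanogaster, was at 588.7 and 735.4 FPKM in eggs and 67.0 to 75.4 FPKM in embryos (difference −3.20), Hsp27 fell by 2.80, Hsp60 by 2.08 and Hsc70-3 by 1.93, and Hsc70-4 overlapped, at 1032 and 1078 FPKM in eggs and 928.9 to 1182 FPKM in embryos.

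For abundant housekeeping groups the direction followed the scaling. Of 53 cytoplasmic ribosomal protein genes, 42 were called higher and 0 lower in the 75th-percentile table and 13 higher and 4 lower in the TMM table, with medians of 0.63 and 0.15, and 5 were higher in all 6 scalings. RpS28b was one of the 5, at 1487 and 1233 FPKM in eggs and 2517 to 4459 FPKM in embryos, with RpS5b, RpL8 and RpL3 rising by 1.52, 1.12 and 1.11. The highest genes of the egg included RpL39 (8077 and 5911 FPKM), RpS25, Ef1alpha48D and RpL36A, and the 5 highest of the embryos were Ef1alpha48D (7029 to 8358 FPKM), RpL27A, RpL39, RpL27 and RpS25. Among 34 mitochondrial ribosomal protein genes 6 were higher and 11 lower. Their extremes were mRpL48 and mRpL15, which rose by 1.70 each, and mRpS10, which was at 145.8 and 142.5 FPKM in eggs and 33.9 to 37.7 FPKM in embryos. MRpL22 had a difference of 1.56 and was higher in 5 of the 6 scalings, and mRpS25 overlapped, at 152.3 and 149.5 FPKM in eggs and 122.1 to 187.9 FPKM in embryos.

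In the proteasome list 3 of 13 were higher and 2 lower. Rpn9 and Rpn1 of the regulatory particle rose by 1.67 and 1.47, and Rpt3R rose by 1.59 from 0.225 and 0.133 FPKM. Prosalpha5 of the core fell by 0.81, and Prosbeta2 was at 246.2 and 213.3 FPKM in eggs and 189.1 to 252.6 FPKM in embryos. Of 10 replication licensing genes 2 were higher and 1 lower. Orc4, a subunit of the origin recognition complex, was at 0.420 and 1.29 FPKM in eggs and 27.8 to 34.3 FPKM in embryos (difference 4.09). The helicase subunit gene Mcm7 was at 146.2 and 131.4 FPKM in eggs and 369.4 to 432.1 FPKM in embryos (difference 1.52), and geminin, an inhibitor of licensing, fell by 0.97. Mcm6, another helicase subunit gene, had a difference of 0.85 and was higher in 3 of the 6 scalings, and Mcm5 overlapped, at 146.2 and 154.7 FPKM in eggs and 133.8 to 176.4 FPKM in embryos.

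Few markers of cells that neither an egg nor a blastoderm should contain were measured, and most of these were low. Of the follicle cell and eggshell list 4 of 19 genes were measured. Their levels were at most 1.40 FPKM in every library, apart from the yolk protein gene Yp3, at 0.272 and 0.0884 FPKM in eggs and 1.42 to 6.66 FPKM in embryos. Yp3 was higher in 5 of the 6 scalings. Of the neuron, muscle, glia and haemocyte list 4 of 16 genes were measured. Elav, a neuronal RNA-binding protein gene, was at 0.980 and 1.37 FPKM in eggs and at 96.2, 81.4 and 89.9 FPKM in females and 69.2 and 67.7 FPKM in males (difference 5.19). The synaptic gene n-syb of the same list was at 0 to 0.312 FPKM in all 7 libraries and Act57B at 0.944 to 2.42 FPKM. Pxn was at 0.185 and 0.245 FPKM in eggs and 1.22 to 1.91 FPKM in embryos, and was higher in 5 of the 6 scalings. No gene of the testis list was measured.

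By chromosome, genes whose D. melanogaster ortholog lies on the X (Müller element A) had their own balance. Of 882 such genes 27 (3.06%) were newly present and 115 (13.0%) cleared, against 4.32 to 5.60% and 7.68 to 8.96% on the other 4 large arms. Their median difference was −0.16, while the other arms had medians of 0.40 to 0.52. Against the eggs it was 0.06 in females and −0.38 in males, and on the other arms 0.41 to 0.52 in females and 0.39 to 0.51 in males. These are counts over genes and were not tested.

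The change from egg to embryo in D. virilis was then set against the mean change in D. melanogaster and D. yakuba, which had 2 eggs and 6 embryos each, in 1 fit of 29 libraries. Of 5983 genes, the change was larger (more positive) in D. virilis for 2176 (36.4%) and smaller for 1973 (33.0%) at an adjusted p under 0.05 (limma). With the median scaling the split was 1501 larger and 2822 smaller, with TMM 1992 and 2214, and with quantile scaling 1979 and 2157. It stayed on the larger side with the 95th-percentile scaling (2388 and 1710) and with no scaling (2325 and 1796). The species share no library, but annotation and orthology also differ between species, and their part was not tested.

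The largest positive difference was that of Adh, alcohol dehydrogenase (scaffold 12723, 2503146 to 2504207). In D. virilis it was at 2.32 and 2.76 FPKM in eggs and at 189.5, 141.2 and 184.9 FPKM in females and 127.9 and 192.5 FPKM in males. In the other species it ran the opposite way, with means of 162.0 FPKM in eggs and 2.37 FPKM in embryos of D. melanogaster and 134.9 and 3.23 FPKM in D. yakuba (difference of changes 10.85 ± 0.37, adjusted p = 2.37e-16, limma). In D. pseudoobscura, with 1 egg, it was at 178.8 FPKM in the egg and 2.95 FPKM in embryos.

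CG7255, CG1749 and jigr1 were newly present in D. virilis and maternal in D. melanogaster. Jigr1, which encodes a DNA-binding protein, was at 1.33 and 0.605 FPKM in D. virilis eggs and 121.1 to 147.6 FPKM in embryos, while its D. melanogaster means were 251.8 FPKM in eggs and 82.7 FPKM in embryos (difference of changes 7.31). In D. pseudoobscura it was at 16.8 FPKM in the egg and 48.7 FPKM in embryos. CG7255 went from 0.209 and 0 FPKM to between 118.2 and 165.7 FPKM (8.97), and CG1749 from 0.177 and 0.208 FPKM to between 7.95 and 18.6 FPKM (8.0). Their D. pseudoobscura levels were 42.8 FPKM in the egg and 48.8 FPKM in embryos for CG7255, and 8.9 and 14.4 FPKM for CG1749.

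In the negative direction, l(3)neo38, a zinc finger gene, was at 25.5 and 28.0 FPKM in D. virilis eggs and 13.7 to 18.4 FPKM in embryos, a fall. It was near absent from the eggs of the other species (0.217 FPKM in D. melanogaster, 0.140 FPKM in D. yakuba and 0.817 FPKM in D. pseudoobscura) and strongly present in their embryos (218.1, 225.1 and 363.4 FPKM), so the difference of changes was −8.31. CG11523, listed at 0 in every D. virilis embryo, was at 66.1 FPKM in D. melanogaster embryos, 108.5 in D. yakuba and 6.38 in D. pseudoobscura (−7.35). Asph, a hydroxylase gene, was at 3.14 and 3.08 FPKM in D. virilis eggs and 1.19 to 1.27 FPKM in embryos, against means of 0.735 and 75.4 FPKM in D. melanogaster (−6.46). Mdr49, a transporter gene, was at most 0.425 FPKM in all 7 D. virilis libraries, while D. melanogaster embryos averaged 171.1 FPKM (−6.18). Both genes were also low in D. pseudoobscura embryos, with means of 0.751 FPKM for Asph and 0.36 FPKM for Mdr49.

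**Figure D5:**
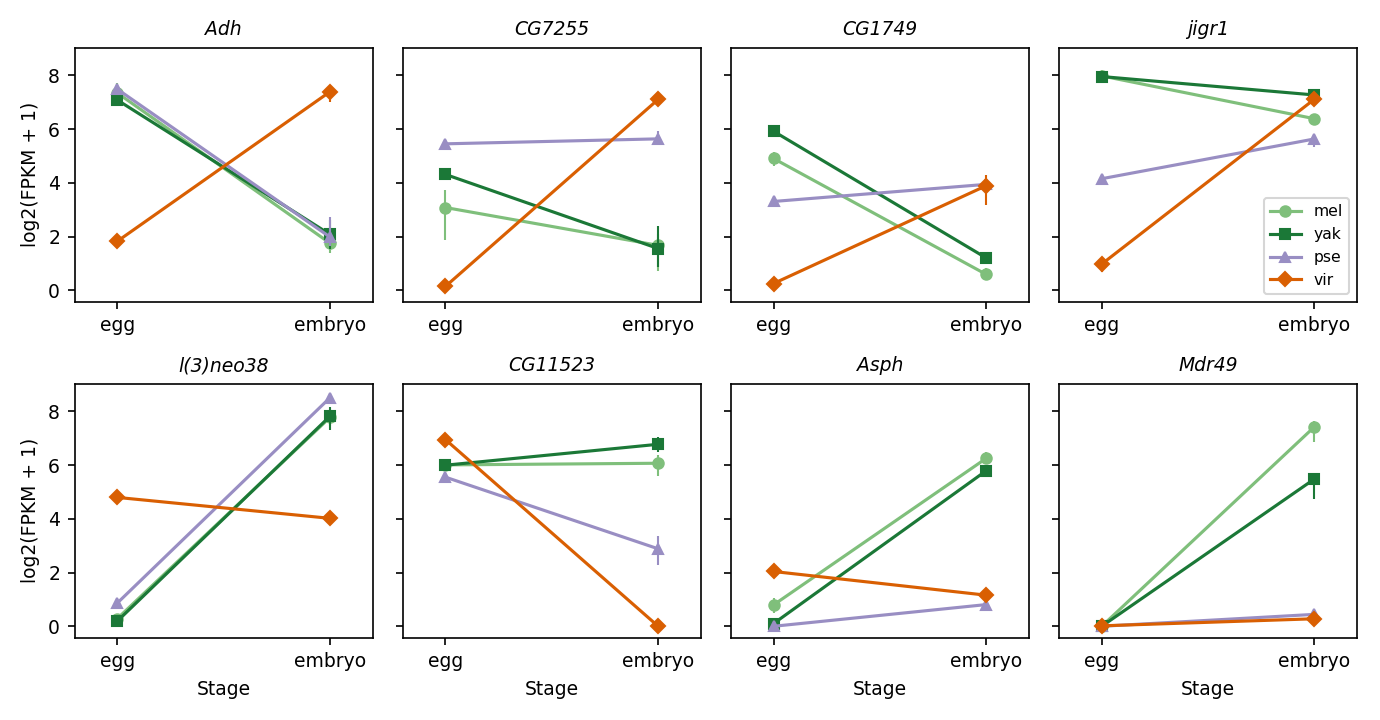
Mean levels in eggs and embryos, as log2(FPKM + 1), are joined by a line for each of the 4 species (mel, yak, pse and vir), with vertical lines from the lowest to the highest library, for the 8 genes named in the comparison of species. The D. virilis lines cross those of D. melanogaster and D. yakuba for Adh, CG7255, CG1749 and l(3)neo38, and for CG11523 and Asph they run down while those of D. melanogaster and D. yakuba hold or rise.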

How the data were processed

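Single eggs and embryos were sequenced as mRNA libraries on an Illumina HiSeq instrument. Reads were quality-trimmed by the authors and aligned to transcripts (Bowtie2), transcript levels came from eXpress, and gene levels were sums over transcripts. For D. melanogaster they used the FlyBase annotation 5.39, and for D. virilis the annotation of an earlier study, whose assembly name is not given in the sources used here. The deposited values are log10(FPKM + 1) after scaling, in 6 tables (75th percentile, none, median, 95th percentile, TMM and quantile). Depth per sample is unknown, so no counting intervals are given.

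Values were turned back to FPKM and tested as log2(FPKM + 1), a pseudocount of 1, with limma 3.58.1 in R 4.3.3 (empirical Bayes with trend, Benjamini-Hochberg). D. virilis was fitted as 3 groups (eggs, females, males), and the species comparison as 12 groups. Genes needed a group mean above 1 FPKM. Symbols and coordinates are those of the files. D. melanogaster exon numbers were matched by gene identifier to a later annotation, and no sequences were used. The deposited class of D. virilis genes was not used, since it was derived from these libraries.

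The 24 gene lists, the thresholds and the genes to be described were chosen with earlier results of these data known. Named genes were the 10 newly present and 10 cleared genes with the largest differences, up to 4 called members of each list with the largest difference and the uncalled member highest in eggs, the 5 highest genes of each stage, and 4 genes in each direction for the species comparison. A gene that this rule selects is not reported here. Other genes are said to be chosen after their values were seen, or are given as members of a list or run. The fit was tried on simulated data of 5202 genes, with 67, 67 and 66 of them changed by 0.5, 1 and 2 log2 units. It recovered 29.9%, 94% and 98.5% of these, and 5.73% of calls were wrong. The changed genes were few and all had a mean embryo level above 2 on the log2(FPKM + 1) scale, with the same starting level in eggs. Genes near absent from eggs were thus not among them. The simulation also held no shift in scaling, whereas 82.9% of the real genes were called. Its shares therefore need not hold for the real comparison. Alternatives were other scalings, pseudocounts of 0.1 and 10, filters, designs, the removed male, and leaving out each library.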

Additional observations from a re-analysis of the deposited data

Results flagged for a closer look

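Among the 125 named genes, 10 had an embryo far from the other 4 (gap to the nearest over the range above 0.71), and chance gives about 1 in 20. The third female was low for zen (0.981 FPKM, against 44.4 to 65.5), Doc1 (4.47, against 33.4 to 52.4), slam (171.7, against 236.8 to 263.0) and Myt1 (7.45, against 10.3 to 11.4). The third male was low for bnk (33.5 FPKM, against 48.1 to 55.6) and high for stg (11.4, against 6.81 to 7.77). The second female was high for spz (1.60 FPKM, against 0.483 to 0.724) and RpL8 (1750, against 1406 to 1471), and the first female for Ge-1 (115.1, against 100.3 to 104.3) and CG10395 (1.18, others listed at 0).

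The change from egg to embryo differed from that of D. melanogaster and D. yakuba, by an interaction term, for 2176 genes with a larger and 1973 with a smaller change. The named ones were Adh (10.85), CG7255 (8.97), CG1749 (8.0), jigr1 (7.31), l(3)neo38 (−8.31), CG11523 (−7.35), Asph (−6.46) and Mdr49 (−6.18). In the male library that the study removed, 245 of the 245 newly present genes were above both eggs, as were 2903 of the 5202 tested genes.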

How the results depend on the processing

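Cleared maternal genes numbered 476, and 760 with the 95th-percentile and 723 with the TMM scaling; at most 10% of the egg level left 175. Newly present genes numbered 245, and 158 with an egg mean under 0.1 FPKM. Of the 2622 genes called higher, 1625 were called in all 6 scalings, an alternative added after seeing the data. With the 95th-percentile scaling the difference was −0.17 for rap, −0.02 for vfl, −0.15 for Stat92E, −0.47 for Ge-1, −0.53 for Mcm5, −0.48 for RpS25 and −0.05 for RpL27A. With TMM it was −0.10 for rap, −0.09 for Stat92E, −0.40 for Ge-1, −0.47 for Mcm5 and −0.42 for RpS25. With no scaling it was −0.10 for rap, −0.08 for Stat92E, −0.40 for Ge-1, −0.46 for Mcm5 and −0.41 for RpS25. With quantile scaling it was −0.11 for Stat92E, −0.27 for Ge-1, −0.48 for Mcm5, −0.08 for Pxn, −0.85 for Act57B and −0.31 for RpS25. These 23 values had the opposite sign in the 75th-percentile table, and no other called result of the 125 named genes changed direction. Members of the lists outside the named genes could also do so. Rpn6 and RpL23 were each called higher in 1 scaling and lower in 1. Across named genes and alternatives, 32 values no longer passed the threshold and 40 newly did; among them, zen and vfl were lost without the first egg, and zen, Stat92E and RpL27A without the second. Leaving out each library gave 2395 to 2602 higher, 1525 to 1680 lower, 232 to 254 newly present and 465 to 490 cleared genes, and 1942 to 2167 larger and 1696 to 1953 smaller changes than in D. melanogaster and D. yakuba.

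Replicate numbers were not taken to pair the libraries, since eggs did not vary with the same-numbered embryos although females and males did: deviations correlated at 0.08 (first egg and female), −0.06 and −0.15 (second egg with female and male), 0.37 (second female and male) and 0.48 (the third female and the third male). With the replicate block 2620 genes were higher and 1681 lower, and 2072 and 1856 differed in the species comparison. With 2 eggs, without counts, and with eggs listed at 0 for 82 newly present genes, small differences and the size of large ones are the least certain.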
